A study of Mus musculus with 9 samples.

Results

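The mouse mitochondrial genome is represented in these data by 37 genes, chosen as every row of the deposited table assigned to chromosome MT, out of 54532 genes in all. They are 13 protein-coding genes, 2 ribosomal RNA genes (mt-Rnr1 and mt-Rnr2) and 22 transfer RNA genes, and 9 of the 37 lie on the minus strand of the annotation. All were measured in kidney tissue of male c57BL/6j mice aged 4 months, in 9 libraries of polyadenylated RNA. Ground controls (libraries GC1 to GC3) stayed on the ground with no unloading and no injection named in the labels. Hindlimb-unloaded mice (HU1 to HU3) had their hind limbs lifted off the floor, a model of disuse and of weightlessness, and received vehicle. Treated hindlimb-unloaded mice (PBA1 to PBA3) received 4PBA, 4-phenylbutyric acid, a chemical chaperone, at 100 mg/kg per day into the peritoneum. Unloading and vehicle therefore cannot be told apart in the comparison of HU with GC. The labels do not name the animal behind each sample, so the p-values below measure the spread between these samples, which may be technical in part.

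Mitochondrial DNA is a small circle kept in many copies per cell, and it is transcribed from both strands into long precursors. Most of its messenger RNAs and both ribosomal RNAs come from the heavy-strand transcript, whereas mt-Nd6 and a minority of the transfer RNAs come from the light-strand transcript. Transfer RNAs sit between the longer genes and are cut out by dedicated nucleases, which frees the messenger and ribosomal RNAs, and most mouse mitochondrial messenger RNAs then receive a short poly(A) tail. The encoded proteins are core subunits of respiratory complexes I, III and IV and of the ATP synthase, complex V, and every other component of these machines is imported from genes in the nucleus. The tubules of the kidney, above all the proximal tubule, are rich in mitochondria because they reabsorb salt and solutes by active transport.

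The results turn partly on transfer RNA genes, whose short sequences carry the anticodon that reads the messenger RNA. The 5 genes printed here hold most of the transfer RNA reads or the clearest differences between libraries. Sequences are from GENCODE mouse release 21 (build GRCm38, the same assembly as mm10), read on the strand of the gene, with the anticodon in capitals.
mt-Tp (proline, minus strand, chrMT:15356-15422): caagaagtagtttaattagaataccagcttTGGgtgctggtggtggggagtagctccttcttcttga
mt-Te (glutamate, minus strand, chrMT:14071-14139): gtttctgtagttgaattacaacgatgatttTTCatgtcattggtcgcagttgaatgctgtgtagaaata
mt-Tc (cysteine, minus strand, chrMT:5192-5257): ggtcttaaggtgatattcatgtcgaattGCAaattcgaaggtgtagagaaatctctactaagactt
mt-Th (histidine, plus strand, chrMT:11546-11612): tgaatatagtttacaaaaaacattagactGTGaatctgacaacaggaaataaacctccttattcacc
mt-Tl2 (leucine, plus strand, chrMT:11671-11741): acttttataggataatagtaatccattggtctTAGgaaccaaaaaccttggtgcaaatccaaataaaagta

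A stretch of the mitochondrial genome also exists as a nuclear copy, a fragment of mitochondrial DNA inserted into a chromosome. The annotated transcripts on mouse chromosome 1 between 24611535 and 24616197 hold, in the same order, the end of mt-Co1, nearly all of mt-Co2, mt-Atp6, mt-Co3, mt-Nd3 and mt-Nd4l, and the start of mt-Nd4. These 7 transcripts carry the names Gm29216, Gm28661, Gm10925, Gm28437, Gm28438, Gm10222 and Gm28439. They correspond to positions 6394 to 11042 of the mitochondrial genome. A read from within identical sequence cannot be assigned to one place by its letters. Both ends of the copied stretch are printed, 5′ to 3′ on the plus strand, with the bases that are identical in the chromosome 1 transcript in capitals. The first window is inside mt-Co1 and the second inside mt-Nd4.
mt-Co1 window (chrMT:6354-6433): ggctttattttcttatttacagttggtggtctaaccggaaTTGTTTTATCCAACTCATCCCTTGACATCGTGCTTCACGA
mt-Nd4 window (chrMT:11003-11082): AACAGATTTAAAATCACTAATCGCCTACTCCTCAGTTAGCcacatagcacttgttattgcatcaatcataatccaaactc

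Reads recovered from the deposited values numbered 7595631 to 15141784 per library, of which 2029417 to 6026743 came from the mitochondrial genome. Mitochondrial reads took 63.7% to 79.3% of each HU library. They took 14.8% to 49.7% of the GC libraries, where GC3 was the highest, and 13.7% to 67.1% of the PBA libraries, where PBA3 was the highest. The 3 HU libraries were all above the 3 GC libraries, while PBA3 fell inside the range of HU. The mean difference between HU and GC was 42.8 percentage points (2-sided exact permutation test, p = 0.1, the smallest that 3 against 3 samples can give), and over the 3 groups the exact p was 0.182. PBA was 38.6 percentage points below HU (exact permutation p = 0.2), and without PBA3 the difference was -56.2 points and the 3-group p was 0.0214. In bulk tissue, more mitochondrial RNA per cell, a different mix of cells and less RNA from the nucleus cannot be told apart.

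Markers of several, but not all, kidney cell types differed between these groups. The summed level of 3 proximal tubule genes (Lrp2, Slc34a1, Slc5a2), above 0 in all 27 values, was 557 to 761 FPKM in GC, 35.4 to 119 in HU and 159 to 672 in PBA, where PBA3 was the lowest. The 2 podocyte genes summed to 8.59 to 24.0 FPKM in GC, 0 to 0.686 in HU, 14.7 in PBA1, 7.31 in PBA2 and 0.170 in PBA3. Thick limb genes (191 to 372 FPKM in GC, 99.7 to 153 in HU), distal tubule genes (49.8 to 65.6 and 7.04 to 24.1) and erythroid genes (398 to 1442 and 140 to 208) were also lower in HU than in GC without overlap. So were leukocyte genes (8.85 to 14.8 FPKM in GC, 5.83 to 7.73 in HU). Of all 12642 genes tested singly, 19.4% lay wholly lower in HU than in GC and 18.3% wholly higher. A lower marker sum without overlap is therefore not particular to these cell types. Collecting duct genes (95.2 to 112 FPKM in GC, 60.0 to 208 in HU) and endothelial genes (6.45 to 11.7 and 4.68 to 13.7) overlapped. Liver, urothelium, skeletal muscle, heart and adrenal genes overlapped as well. The 4 adipocyte genes followed 2 single libraries rather than the groups: they summed to 364 FPKM in GC2 and 363 in PBA3, against 8.00 to 16.8 in the other 7 libraries. Of the reads that were not mitochondrial, pseudogenes took 3.73% to 7.54% in HU and 4.83% in PBA3, against 0.955% to 1.76% in the other 5 libraries. This share may not be separate from the mitochondrial one, since nuclear copies of mitochondrial sequence are among the reads not counted as mitochondrial. The chromosome 1 copies held 107345 of 2550139 such reads in HU1, 87889 of 1568888 in HU2 and 71625 of 3037972 in HU3. They held 98752 of 2887586 in PBA3 and 29872 to 53707 reads in the other 5 libraries. The part of these differences in the results below was not tested.

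Levels per length are given as FPKM, reads per kilobase of gene scaled by a constant of each library. The constant ran from 0.0400 in PBA1, with 14617394 reads, to 0.321 in HU2, with 7595631 reads. It differed more than depth did, so differences in FPKM between libraries depend on it. The most abundant messenger RNA in 8 of 9 libraries was mt-Cytb, the cytochrome b subunit and sole mitochondrially encoded part of complex III (MT 14145 to 15288). It had 25808, 18437 and 93094.5 FPKM in GC1, GC2 and GC3, then 171273, 396303 and 146776 FPKM in HU1, HU2 and HU3, and 16463, 19053.5 and 181568 FPKM in PBA1, PBA2 and PBA3. All HU libraries were above all GC libraries, GC3 was several times above GC1 and GC2, and PBA3 was inside the HU range. In the remaining library, GC3, the highest messenger RNA was mt-Co1, the catalytic subunit of complex IV (MT 5328 to 6872), at 99096 FPKM.

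Of the 7 complex I subunits, which form the membrane arm that pumps protons, mt-Nd1, mt-Nd2 and mt-Nd4 were the most abundant. mt-Nd1 had 38147 ± 36486 FPKM in GC and 203416 ± 113667 in HU, and mt-Nd2 had 23777 ± 24077.5 and 137964 ± 78137 (SD, n = 3 each). mt-Nd4 had 19235 ± 16044 FPKM in GC and 109849 ± 68886 in HU, and mt-Nd5 had 9043 ± 8539 and 34809.7 ± 12643 (SD, n = 3 each). The large SD of the ground controls reflects GC3, which held the highest GC value of all 13 messenger RNAs. mt-Nd6, the sole light-strand messenger RNA, had 10053, 7081 and 30065 FPKM in GC, 48728, 66382 and 35711 in HU, and 6383, 8043 and 64108 in PBA, in the order of the sample numbers. HU again did not overlap GC, and PBA3 again lay among the HU values.

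The other complex I subunits were far lower. mt-Nd3 (MT 9459 to 9806) had 259, 249 and 644 FPKM in GC1 to GC3, 1755, 5419 and 3331 in HU1 to HU3, and 110.1, 275 and 1463 in PBA1 to PBA3. It was the one messenger RNA whose HU values lay above all values of both other groups, with HU1 close above PBA3. mt-Nd4l had 289.8 ± 329 FPKM in GC and 1804 ± 1134 in HU (SD, n = 3 each).

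Among the other complex IV subunits, mt-Co2 had 2434 ± 1833 FPKM in GC and 11943 ± 7782 in HU (SD, n = 3 each). mt-Co3 had 2304, 750.3 and 11419 FPKM in GC1 to GC3, 4191, 12244 and 4858 in HU1 to HU3, and 1434, 1088 and 3657 in PBA1 to PBA3. Here GC and HU overlapped, since GC3 was above HU1 and HU3, and all PBA values were below all HU values. For complex V, mt-Atp6 had 1161 ± 739 FPKM in GC and 10900.2 ± 9101 in HU (SD, n = 3 each). mt-Atp8, which shares 43 bases with mt-Atp6, was the lowest messenger RNA in every library. It had 3.53, 1.84 and 5.82 FPKM in GC1 to GC3, 1.64, 346 and 118 in HU1 to HU3, and 2.36, 1.28 and 22.8 in PBA1 to PBA3. HU2 and HU3 were high and HU1 was among the lowest, on 2 reads against 220 and 163.

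**Figure D1:**
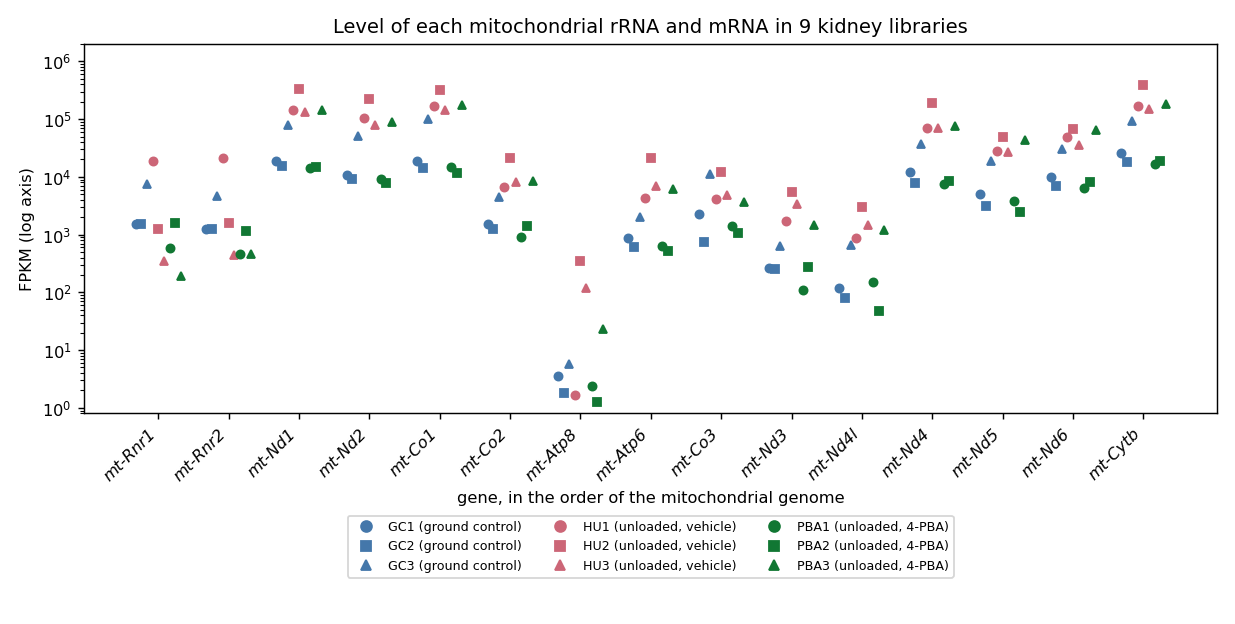
FPKM on a log axis of both ribosomal RNAs and the 13 messenger RNAs, in genome order, with 1 point per library (blue GC, red HU, green PBA; circle, square and triangle for samples 1, 2 and 3). The triangles GC3 and PBA3 lie above the other samples of their groups for most messenger RNAs, and mt-Co2 to mt-Nd4l lie below the rest.

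The levels fell into 2 sets along the genome. The 6 messenger RNA genes that lie wholly inside the stretch copied on chromosome 1 (mt-Co2, mt-Atp8, mt-Atp6, mt-Co3, mt-Nd3 and mt-Nd4l) were lower per length than each of the other 7 in all 9 libraries. The narrowest separation was in GC3 and PBA2: in GC3 the highest of the 6 had 11419 FPKM and the lowest of the 7 had 18837.5, and in PBA2 these were 1419 and 2445. The 6 genes together took 1.32% to 2.91% of the messenger RNA reads of a library. The longest run identical to the chromosome 1 transcript covered 99.9% of mt-Co3, 99.6% of mt-Co2, 99.6% of mt-Atp6, 99.0% of mt-Nd4l and 98.3% of mt-Nd3, against 63.6% of mt-Nd4 and 31.0% of mt-Co1. No annotated transcript held a run of at least 49 bases of mt-Atp8.

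**Figure D2:**
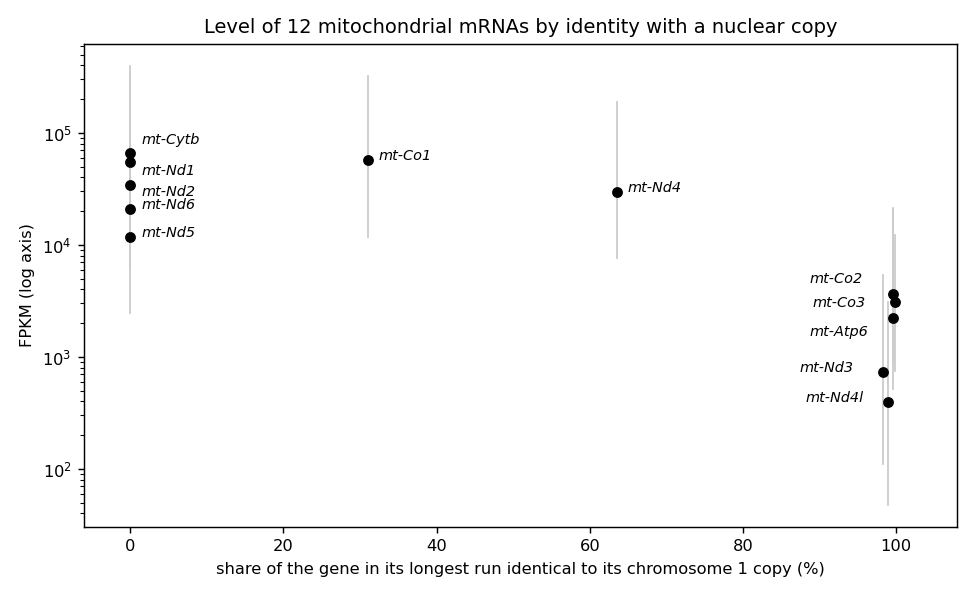
FPKM on a log axis of 12 messenger RNAs (mt-Atp8 left out, as it lies in the stretch but has no annotated copy) against the share of the gene in its longest run identical to its chromosome 1 copy, in %. Points are geometric means over 9 libraries, grey lines run from the lowest to the highest library, and genes with no chromosome 1 copy are at 0. The 5 genes at 98.3% or more lie below the other 7.

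Reads were assigned to the nuclear copies as well. Gm28661 took 37.3% to 50.03% of the reads of mt-Co2 and its copy together, and Gm10925 took 29.1% to 41.5% of those of mt-Atp6. The shares were 23.9% to 36.5% for mt-Nd3, 23.4% to 37.98% for mt-Nd4l, 0.372% to 0.846% for mt-Nd4 and 0.327% to 2.28% for mt-Co1. For mt-Co3 the share ranged from 7.83% in GC3 to 71.8% in HU1, the widest range of the 7 pairs, so the FPKM of mt-Co3 and of Gm28437 are uncertain. The copies on chromosome 1 held 0.941% to 2.23% as many reads as the whole mitochondrial genome. Counting the reads assigned to nuclear copies as mitochondrial changed the HU minus GC difference in share from 42.8 to 43.6 percentage points. Reads left unassigned because they matched both places would not show in these values. How reads with more than 1 match were treated is not stated.

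The 2 ribosomal RNAs did not follow the messenger RNAs. mt-Rnr1, the RNA of the small mitochondrial ribosomal subunit (MT 70 to 1024), had 1528, 1537 and 7391 FPKM in GC1 to GC3, 18657, 1241 and 343 in HU1 to HU3, and 587, 1583 and 188 in PBA1 to PBA3. mt-Rnr2, the RNA of the large subunit (MT 1094 to 2675), had 1243, 1262 and 4609.8 FPKM in GC1 to GC3, 21103, 1616 and 451 in HU1 to HU3, and 463, 1163 and 454 in PBA1 to PBA3. HU1 was the highest and HU3 among the lowest for both, and the HU values overlapped those of both other groups. PBA3 was the lowest library for mt-Rnr1, below HU3. As a share of mitochondrial reads, ribosomal RNA took 2.71% to 3.69% in GC, 5.45% in HU1, 0.193% in HU2 and 0.132% in HU3. It took 1.45% in PBA1, 3.79% in PBA2 and 0.0952% in PBA3. HU2, HU3 and PBA3 were thus low together, while HU1, with a like total mitochondrial share of 68.7%, was the highest. Mature mitochondrial ribosomal RNAs have at most very short tails, and libraries selected for poly(A) sample them poorly.

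**Figure D3:**
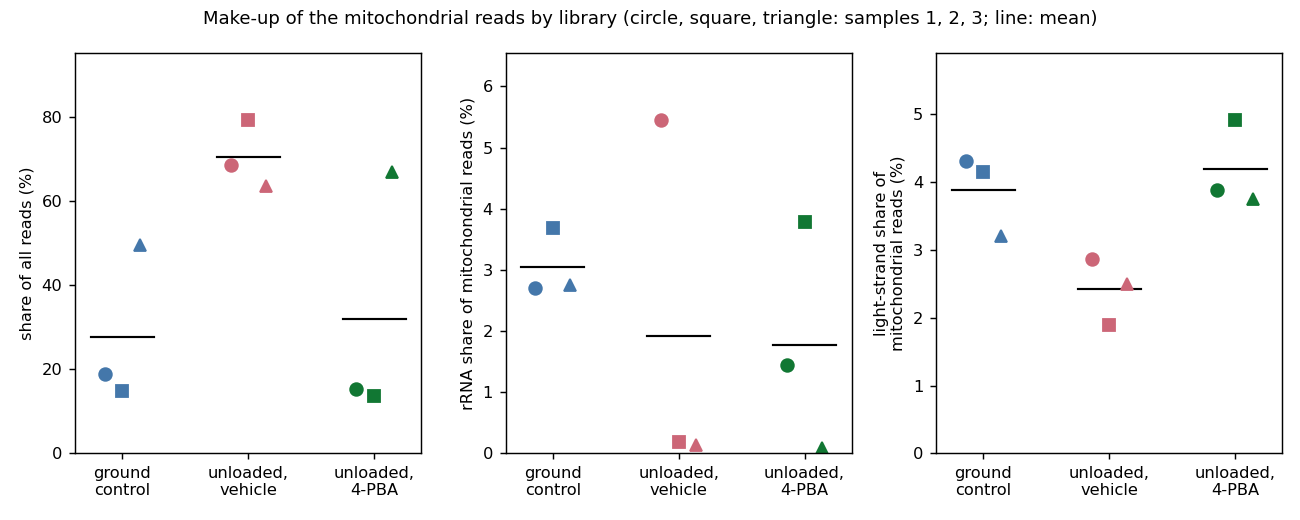
Share of all reads from the mitochondrial genome, share of mitochondrial reads from the 2 ribosomal RNAs and share from light-strand genes, each in % by library (circle, square and triangle for samples 1, 2 and 3; line, group mean). The ribosomal RNA share separates HU1 at 5.45% from HU2 and HU3, whereas the light-strand share is lower in all 3 HU libraries than in the other 6.

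Of 22 transfer RNA genes, 17 reached 1 FPKM in at least 3 libraries. mt-Tf, mt-Tv and mt-Td had 0 reads in every library, which allows a share of up to 4.98e-05% to 0.000148% of mitochondrial reads at 3 reads per library, and mt-Ts1 and mt-Tk had 5 and 4 reads in all. Fragments as short as a transfer RNA are largely lost when such libraries are made, so these reads are not a measure of mature transfer RNA. The remaining reads were concentrated on the minus strand genes printed above. Use of strand in counting is not stated, and without it reads of these genes and of antisense RNA across them could not be told apart. mt-Tp and mt-Te together held 66.6% to 88.5% of the transfer RNA reads of a library.

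mt-Tp had 2226, 2238 and 8861 FPKM in GC1 to GC3, 19032, 23882 and 11899 in HU1 to HU3, and 1579, 1943 and 20599.5 in PBA1 to PBA3. HU lay above GC throughout and PBA3 was within HU, as for the messenger RNAs except mt-Co3, mt-Nd3 and mt-Atp8. mt-Te had 2587 ± 3096 FPKM in GC, 3809.6 ± 1427 in HU and 3275 ± 4761 in PBA (SD, n = 3 each), and its groups overlapped. mt-Tc had 498 ± 403 FPKM in GC, 1675 ± 486 in HU and 503 ± 657 in PBA (SD, n = 3 each).

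A cluster of 3 transfer RNA genes between mt-Nd4 and mt-Nd5 (mt-Th, mt-Ts2 and mt-Tl2) separated the HU libraries from each other. Its genes together had 1352 reads in HU2 and 1853 in HU3, against 61 in HU1 and 33 to 262 in the GC and PBA libraries. Per 1000 reads of the flanking mt-Nd4 and mt-Nd5 this was 1.24 in HU2, 1.88 in HU3 and 0.0690 in HU1, and 0.0887 to 0.611 elsewhere. mt-Tl2 had 31.8, 80.0 and 140.2 FPKM in GC1 to GC3, 82.6, 5254 and 3133 in HU1 to HU3, and 16.9, 6.75 and 352 in PBA1 to PBA3. HU2 and HU3 exceeded every other library many times over, and HU1 did not. mt-Th, whose groups did separate in FPKM, rested on few reads: 12, 36 and 14 in GC, 16, 125 and 152 in HU, and 13, 14 and 16 in PBA. Per 1000000 mitochondrial reads, HU1 had 2.85, below 4.88 in GC1 and 16.0 in GC2, so HU and GC overlapped on that scale. Per length these were 9.20, 22.4 and 19.1 FPKM in GC, 39.99, 599 and 334 in HU, and 7.77, 9.11 and 38.3 in PBA, so that HU1 and PBA3 had the same 16 reads.

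Other transfer RNAs were low. mt-Tl1, which follows mt-Rnr2 and binds leucine, had 1 read in HU1, 158 in HU2 and 105 in HU3, against 26 to 283 in the other 6 libraries. The rest with a group mean of at least 10 FPKM were mt-Tn (81.1 ± 63.0 FPKM in GC and 542 ± 469 in HU), mt-Ty (139.7 ± 138.7 and 619.9 ± 285), mt-Tg (53.5 ± 30.5 and 340.5 ± 265), mt-Tr (52.6 ± 25.6 and 283 ± 160), mt-Ts2 (34.4 ± 16.3 and 289 ± 234), mt-Tw (44.6 ± 35.7 and 76.8 ± 76.7), mt-Ti (30.3 ± 44.9 and 22.6 ± 23.3), mt-Tq (13.3 ± 21.9 and 35.8 ± 34.1), mt-Tm (11.1 ± 7.07 and 21.5 ± 17.8) and mt-Tt (3.64 ± 6.30 and 19.9 ± 32.6; SD, n = 3 each). mt-Ta stayed under 20 FPKM in every library.

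**Figure D4:**
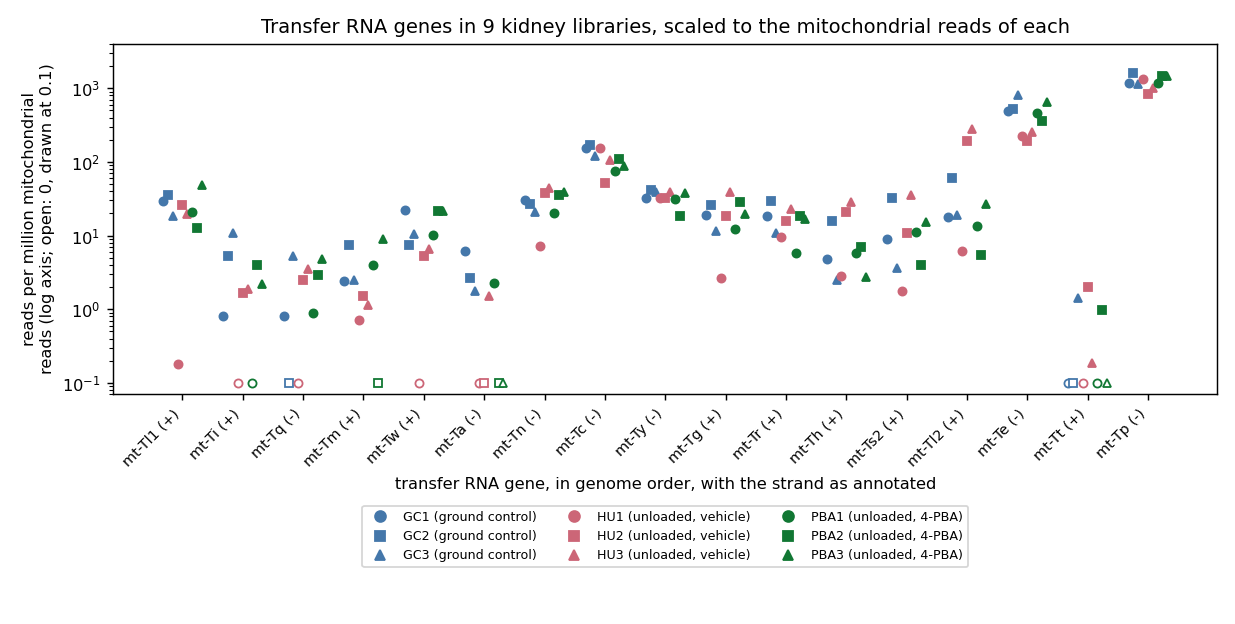
Reads of each of 17 transfer RNA genes per 1000000 mitochondrial reads of the library, on a log axis, in genome order with the annotated strand (blue GC, red HU, green PBA; circle, square and triangle for samples 1, 2 and 3; open symbols, 0 reads, drawn at 0.1). The red square and triangle of mt-Tl2, at 193 and 283 per 1000000, stand above the other 7 libraries. mt-Tp is the highest gene in every library, and mt-Te is next except in HU3, where mt-Tl2 at 283 exceeds mt-Te at 253.

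The comparison of unloaded with ground control kidneys asks how the mitochondrial transcripts differed after unloading with vehicle. Of the 32 genes that reached 1 FPKM in at least 3 libraries, 2 rose and 0 fell at a limma adjusted p under 0.05, where 10.2% of all 12642 genes tested passed in either direction, 5.32% upwards. The adjustment ran over all those genes. Before adjustment 15 of the 32 had p under 0.05, beside 29.8% of all genes tested. Run on the recovered reads, limma-voom called 3 (mt-Atp6, mt-Nd3 and mt-Ty), beside 10.4% of all genes. mt-Nd3 rose by 3.19 ± 0.87 in log2 units (SE, adjusted p = 0.0473 from limma) and mt-Th by 3.58 ± 0.93 (SE, adjusted p = 0.0409 from limma). In FPKM, each was higher in 3 of 3 HU samples than in any GC sample. Per mitochondrial read mt-Th overlapped between HU and GC, as did the share of mt-Nd3 given below. Over 20 alternative settings the limma adjusted p of mt-Nd3 ranged from 0.00663 to 0.158 and passed in 10, and that of mt-Th ranged from 0.0205 to 0.148 and passed in 9. With the reads of the chromosome 1 copies counted with their mitochondrial genes, mt-Nd3 differed by 3.20 in log2 units (adjusted p = 0.0419 from limma).

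All 13 messenger RNAs had positive differences, from 1.22 (mt-Co3) to 3.43 (mt-Atp8) with a median of 2.70 on the log2(FPKM + 1) scale, beside a median of -0.03 over all genes tested. The heavy-strand genes of highest level lay close together: mt-Nd1 at 2.70, mt-Nd2 at 2.87, mt-Co1 at 2.72, mt-Nd4 at 2.67, mt-Cytb at 2.60 and mt-Nd5 at 2.31. mt-Nd6 of the light strand was at 1.92 ± 0.96 (SE; limma adjusted p = 0.215). mt-Atp6 was at 3.09, mt-Nd4l at 3.07 and mt-Co2 at 2.36. Apart from mt-Nd3, their limma adjusted p ran from 0.0726 (mt-Atp6) to 0.411 (mt-Co3), which did not pass.

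mt-Rnr1 had -0.38 ± 1.37 and mt-Rnr2 0.36 ± 1.21 (SE; limma adjusted p = 0.881 and 0.868), with opposite signs and errors larger than the differences. Among the 17 transfer RNAs the differences ran from -1.82 (mt-Ta) to 3.95 (mt-Tl2), with a median of 2.00 and 14 positive. HU and GC did not overlap, with HU higher, for 16 of the 32 genes, beside 18.3% of all genes tested. The 16 were 11 messenger RNAs (all except mt-Atp8 and mt-Co3) and mt-Tc, mt-Th, mt-Tp, mt-Tr and mt-Ty, and 0 genes lay wholly lower, beside 19.4%.

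The count of called genes depended on which libraries set the spread. Without PBA3, which enters this comparison through the shared estimate of spread alone, limma called 15 of 32 genes, 10 of them messenger RNAs, with the same differences. The share of all genes called in that setting was 19.8%, against 10.2% with PBA3. Without GC3 and PBA3 it called 16, 11 of them messenger RNAs, with a median messenger RNA difference of 3.44, beside 13.4% of all genes. It called 9 with the 6 HU and GC libraries alone, beside 16.3% of all genes. It called 0 without GC1, GC2, GC3, HU2 or PBA2, where 0.632% to 9.84% of all genes passed, and 1 without HU3 or PBA1, where 2.96% and 7.07% passed. The 1 gene without HU3 was mt-Ta, which fell. Scaling to total reads moved the median of all genes to -0.78, and the messenger RNAs then ran from 0.15 to 2.52 with a median of 1.63, all still positive. There mt-Th alone was called, beside 17.7% of all genes.

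**Figure D5:**
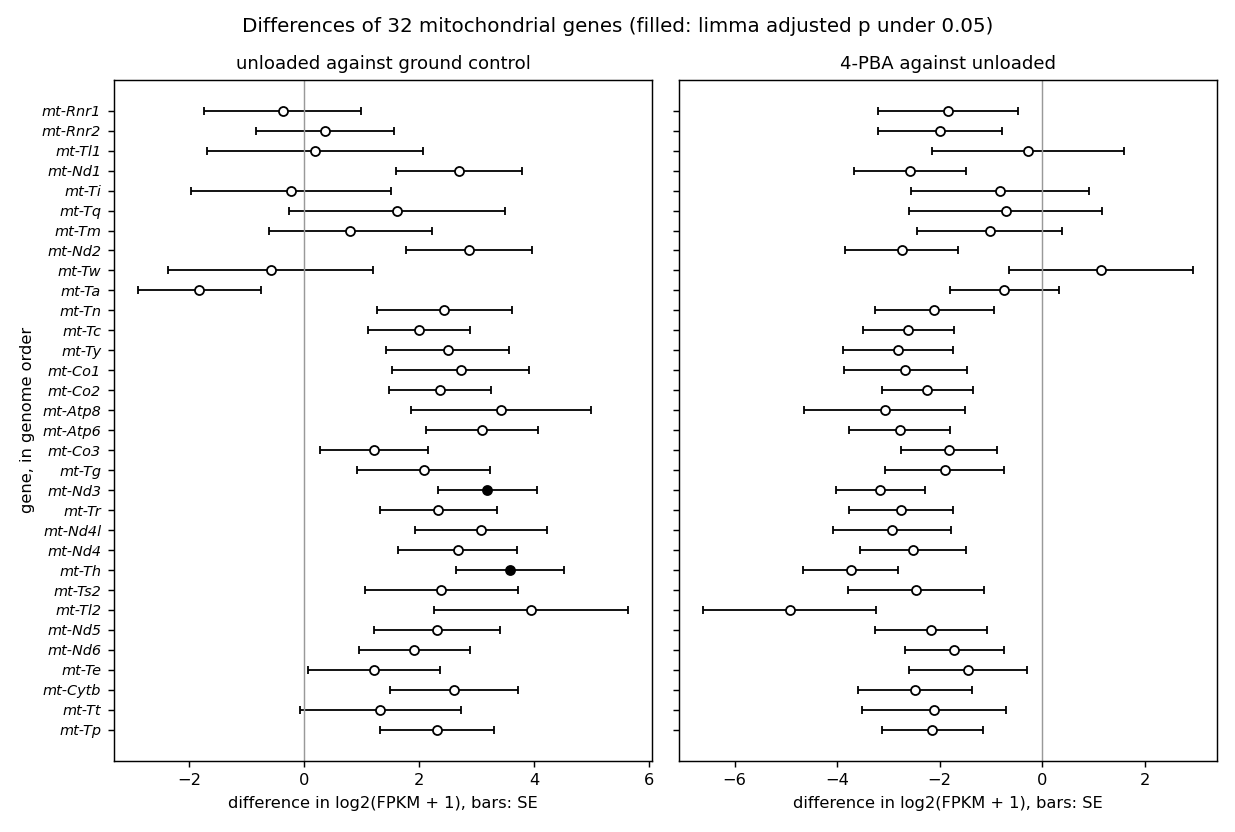
Differences in log2(FPKM + 1) of 32 mitochondrial genes in genome order, unloaded minus ground control on the left and 4PBA minus unloaded on the right, with SE bars from limma over 3 samples a group. Filled points passed the threshold (mt-Nd3 and mt-Th on the left, none on the right), and the ribosomal RNAs at the top lie near 0 on the left, away from the messenger RNAs.

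The comparison of treated with untreated unloaded kidneys asks what 4PBA altered during unloading. It shares the HU libraries with the first comparison, so opposite signs are partly built in. Limma called 0 of 32 mitochondrial genes, beside 2.69% of all genes tested, 1.53% lower and 1.16% higher. Before adjustment 12 had p under 0.05, beside 20.1% of all genes. The limma-voom fit called 4 (mt-Nd3, mt-Tc, mt-Tr and mt-Ty, all lower), beside 3.63% of all genes. The 13 messenger RNAs had differences from -3.15 (mt-Nd3) to -1.71 (mt-Nd6), with a median of -2.58. The smallest limma adjusted p were 0.0676 for mt-Th (-3.74 ± 0.93, SE) and 0.0901 for mt-Nd3 (-3.15 ± 0.87, SE). mt-Rnr1 had -1.83 and mt-Rnr2 -1.99, and the transfer RNAs ran from -4.92 (mt-Tl2) to 1.15 (mt-Tw). All 3 PBA libraries lay below all HU libraries for mt-Co3, mt-Nd3, mt-Tc and mt-Th, 4 of 32 genes, beside 10.2% of all genes tested, and 0 lay wholly above, beside 10.1%.

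The PBA libraries were not alike. PBA1 and PBA2 resembled GC1 and GC2, whereas PBA3 had mt-Cytb, mt-Co1 and mt-Nd1 levels inside the HU range. Without PBA3 limma called 19 of 32 genes, all lower with 4PBA, where 11.5% of all genes passed in either direction, against 2.69% with it. Of the 19, 11 were messenger RNAs (all except mt-Atp8 and mt-Co3) and 8 transfer RNAs, and the median messenger RNA difference was -3.67. Without GC3 and PBA3 it called 18, beside 10.8% of all genes. PBA3 also had the lowest proximal tubule marker sum of its group and the high adipocyte marker sum given above. It was kept with its label throughout.

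Treated unloaded kidneys against ground controls asks how far treated animals differed from mice that were never unloaded. Limma called 0 of 32 genes, beside 0% of all genes tested. Before adjustment 1 (mt-Ta) had p under 0.05, beside 1.31% of all genes, and limma-voom called 0, beside 0% of all genes. The messenger RNAs ran from -0.60 (mt-Co3) to 0.35 (mt-Atp8), with a median of 0.12 and SE near 1, so differences of several fold in either direction were within the error. The 2 ribosomal RNAs had -2.21 (mt-Rnr1) and -1.63 (mt-Rnr2), neither past the threshold (limma adjusted p = 1). The transfer RNAs ran from -2.56 (mt-Ta) to 0.91 (mt-Tq). PBA lay wholly below GC for mt-Rnr2 and mt-Ta, 2 of 32 genes beside 3.63% of all genes tested, and wholly above for 0, beside 4.37%. The direction of the messenger RNAs rested on GC3 and PBA3: their median was 0.82 without GC3, -0.99 without PBA3 and -0.29 without both.

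Make-up within a library does not depend on the scaling between libraries. The light-strand share of mitochondrial reads was 4.31%, 4.15% and 3.21% in GC1 to GC3, 2.87%, 1.89% and 2.50% in HU1 to HU3, and 3.89%, 4.92% and 3.76% in PBA1 to PBA3. All HU libraries were below the other 6. GC3 and PBA3, which had the highest mitochondrial shares of their groups, had the lowest light-strand shares of their groups. Whether the light-strand share follows the mitochondrial share was not tested. The group means were 3.89 ± 0.60% in GC, 2.42 ± 0.49% in HU and 4.19 ± 0.64% in PBA (SD, n = 3 each), with an exact permutation p = 0.025 over the 3 groups and 0.1 after Benjamini-Hochberg adjustment over 4 make-up measures, which did not pass. Nearly all of these reads were of mt-Nd6, which shares 14 bases with mt-Nd5 on the other strand. The libraries were strand-marked by dUTP, but use of strand in counting is not stated. Without use of strand, reads of mt-Nd6 and of antisense RNA across it could not be told apart.

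Transfer RNA reads made up 0.228 ± 0.029% of mitochondrial reads in GC, 0.172 ± 0.024% in HU and 0.213 ± 0.029% in PBA (SD, n = 3 each; exact permutation p = 0.107 over the 3 groups, adjusted p = 0.214). The ribosomal RNA share did not pass either (exact permutation p = 0.771, adjusted p = 0.771). The log2 ratio of mt-Rnr2 to mt-Rnr1 reads was 0.31 ± 0.23 in GC, 1.05 ± 0.12 in HU and 0.89 ± 0.96 in PBA (SD, n = 3 each), with PBA3 at 2.00 and PBA1 and PBA2 at 0.39 and 0.28 (exact permutation p = 0.296, adjusted p = 0.395). HU was wholly above GC in this ratio, including HU1, whose ribosomal RNA level was so much higher than that of HU2 and HU3.

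Among the messenger RNAs the order of levels varied little. mt-Cytb, mt-Co1 and mt-Nd1 took ranks 1 to 3 in every library, mt-Nd5 took rank 7 and mt-Atp8 rank 13. Complex I genes took 46.0% to 50.5% of messenger RNA reads, mt-Cytb 21.1% to 25.7%, complex IV genes 23.4% to 32.7% and complex V genes 0.269% to 0.755%. Both complex V genes, mt-Co2, mt-Co3, mt-Nd3 and mt-Nd4l lie inside the stretch copied on chromosome 1. These shares count only reads assigned to the mitochondrial genes, so they are uncertain, above all for complex V. The share of each gene was tested over the 3 groups, and 0 of 13 passed (1 at an unadjusted p under 0.05, and 0 with centred log ratios). That one was mt-Nd6, at 3.80 ± 0.63% in GC, 2.33 ± 0.53% in HU and 4.08 ± 0.73% in PBA (SD, n = 3 each; exact permutation p = 0.0321, adjusted p = 0.418). mt-Co3 had 1.30 ± 0.58% in GC, 0.451 ± 0.070% in HU and 0.864 ± 0.503% in PBA (SD, n = 3 each; exact permutation p = 0.146, adjusted p = 0.635). Its share was lowest in PBA3, at 0.305%, and highest in GC3, at 1.77%. The chromosome 1 copy Gm28437 held 71.8% of the reads of the pair in HU1 and 7.83% in GC3, so the mt-Co3 shares are uncertain. With the reads of the copies counted in, the HU minus GC difference of mt-Co3 was 1.82 in log2 units instead of 1.22. The share of mt-Nd3 overlapped between all groups.

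The nuclear genes that build and run the mitochondrial expression system were read from 9 lists with 242 genes in the table, 236 of them tested. Of the genes tested 18 passed in HU against GC, 2 higher and 16 lower, beside 5.32% of all genes tested higher and 4.9% lower. Among 37 nuclear complex I subunits 6 fell and 0 rose (median -0.93). Ndufa1, an accessory subunit, fell from 356 ± 59.4 to 102 ± 36.3 FPKM (SD, n = 3 each), and Ndufb9 from 153 ± 5.36 to 48.6 ± 17.5 FPKM (SD, n = 3 each). Ndufa11 (-1.34) and Ndufv3 (-1.32) also fell. Of 9 complex III subunits 1 fell (Uqcr10, -1.27). Of 11 complex IV subunits 0 passed the threshold (median -0.89, Cox7a2 at -1.33 and Cox4i1 at -1.24). Of 18 complex V genes 2 fell (the ATP synthase inhibitor Atpif1 at -1.79 and Atp5o at -1.25). The messenger RNAs of the same complexes encoded in the mitochondria all had positive differences in these libraries, as given above. In HU the nuclear complex I subunits lay wholly below GC for 30 of 37 genes, beside 19.4% of all genes tested. The same held for 7 of 9 complex III, 8 of 11 complex IV and 13 of 18 complex V genes. In each of these lists 0 lay wholly above, beside 18.3% of all genes.

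For the lists in this paragraph, 4.9% of all genes tested fell and 5.32% rose at the same threshold. Of 82 mitochondrial ribosomal proteins 6 fell and 0 rose (median -0.62), with Mrps18b at -1.55, Mrpl20 at -1.49, Mrpl28 at -1.13 and Mrpl37 at -1.07. HU lay wholly below GC for 46 of the 82 and wholly above for 1, beside 19.4% and 18.3% of all genes. Of 31 genes for processing, modification and decay of mitochondrial RNA 1 fell and 1 rose. Pus1, which makes pseudouridine in transfer RNAs, had 8.11, 8.46 and 8.92 FPKM in GC1 to GC3, 2.54, 2.95 and 2.43 in HU1 to HU3, and 6.56, 6.50 and 7.65 in PBA1 to PBA3. HU lay clear below both other groups, PBA3 included, with log2 differences of -1.39 ± 0.21 against GC (SE; limma adjusted p = 0.00959) and 1.12 ± 0.21 for PBA against HU (SE; limma adjusted p = 0.0299). Tfb1m, which methylates mt-Rnr1 RNA and is also in the transcription list, rose from 0.752 ± 0.118 to 3.22 ± 1.48 FPKM (SD, n = 3 each), by 1.22 in log2 units (adjusted p = 0.0382 from limma). It was the 1 gene called of 17 for transcription and replication of mitochondrial DNA. Of 12 regulators of mitochondrial biogenesis 1 rose, Esrrb, a nuclear receptor related to those that drive respiratory genes, from 2.12 ± 0.42 to 7.22 ± 2.41 FPKM (SD, n = 3 each), with an adjusted p of 0.0220 from limma. Of 21 genes for charging mitochondrial transfer RNAs 0 passed the threshold (median -0.62, Qrsl1 at -0.71 and Hars2 at -0.74). HU lay wholly below GC for 10 of the 21 and wholly above for 1, beside 19.4% and 18.3% of all genes tested.

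With 4PBA against HU, 3 of the 236 nuclear genes passed, all higher, beside 1.16% of all genes tested higher: Pus1, Mrps18b (1.79, limma adjusted p = 0.0203) and Mrpl28 (1.22, limma adjusted p = 0.0476). The list medians were 0.54 for complex I, 0.42 for complex III, 0.54 for complex IV, 0.51 for complex V and 0.36 for ribosomal proteins, beside 0.02 for all genes tested. Against ground controls 0 of 236 passed. Without PBA3, limma called 55 of these genes in HU against GC (5 higher and 50 lower) and 20 in PBA against HU (19 higher and 1 lower), beside 19.8% and 11.5% of all genes. Without GC1 it called 0 in both, beside 0.632% and 0.848% of all genes.

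The nuclear copies of mitochondrial sequence were tested as a list of their own, and their values carry the ambiguity described above. Of 10 tested 3 rose in HU against GC, Gm13339 (a chromosome 2 copy of part of mt-Nd2) by 3.53, Gm28438 by 3.19 and Gm28437 by 3.08 (limma adjusted p = 0.0210, 0.0333 and 0.0389), with a list median of 2.94. All 10 had HU wholly above GC, beside 18.3% of all genes tested. With 4PBA against HU 0 of 10 passed, with a median of -2.81.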

How the data were processed

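RNA sequencing of mouse kidney gave 9 libraries, 3 per group, selected with poly-T beads and strand-marked by dUTP, per the labels' protocols. The submitters' processing notes name the mm10 genome and the tools CASAVA, cutadapt and HISAT2. For the read counter, its strand setting and all versions: not given in the sources used here. Per gene and library the authors deposited 1 value, called FPKM here. Value times gene length gave whole reads times a constant of the library for 100% of values (tolerance 0.01). That constant was not inverse to total reads, as scaling to depth alone would make it. Every pair of replicates differed beyond counting noise. Reads so recovered gave depth, shares and floors (3 reads), which cover counting error only.

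The 12642 genes that reached 1 FPKM in 3 or more libraries entered limma 3.58.1 (R 4.3.3, empirical Bayes with trend) on log2(FPKM + 1), which understates changes of low genes, with all 9 samples in 1 fit of 3 groups and Benjamini-Hochberg adjusted p under 0.05 over all of them. The script was tested on simulated data. Library-level values were compared by 2-sided exact permutation tests (smallest p 0.1 for 2 groups and 0.00357 for 3). Copies were found by matching GENCODE release 21 transcripts of all 37 genes over words of 25 bases, keeping runs of at least 49 bases. All mitochondrial genes are accounted for; values are given for all messenger and ribosomal RNAs, transfer RNAs with a group mean of at least 10 FPKM, the extremes of each class, and per nuclear list up to 4 called members with the smallest p (2 where none passed; fewer are given for the comparisons with 4PBA). The genes and lists were chosen with earlier results of these data known. Same-numbered samples were not taken as pairs. Figures used Python 3.11.15 and matplotlib 3.10.9.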

Additional observations from a re-analysis of the deposited data

How the results depend on the processing

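Alternatives changed scaling, filter, pseudocount, test, samples and the treatment of nuclear copies; counting the copies with their mitochondrial genes, or as mitochondrial in the read shares, was chosen after seeing the data and changed no count of calls. For mitochondrial genes in HU against GC (2 called), limma called 1 with scaling to total reads, beside 17.7% of all genes. It called 0 without a filter and 0 with a pseudocount of 0.1, beside 0.783% and 8.22%. It called 9 with the 6 samples compared and 16 without GC3 and PBA3, beside 16.3% and 13.4%. In 4PBA against unloaded (0 called) it called 18 without GC3 and PBA3, beside 10.8% of all genes. Limma-voom called 4, beside 3.63%. For nuclear genes in HU against GC (18 called) limma called 63 with total reads and 2 without a filter, beside 17.7% and 0.783%. All 63 were lower, where 15.8% of all genes were called lower. The counts were 50 with 6 samples and 31 without GC3 and PBA3, beside 16.3% and 13.4%. In 4PBA against unloaded (3 called) they were 6, 0, 0 and 18 in the same order of settings, beside 5.06%, 0.0559%, 0.152% and 10.8%. With a pseudocount of 0.1 the count was 1, beside 1.15%. Same-numbered samples share a number only (9 correlations of deviations, from -0.196 to 0.288, 2 of them over 0.1). With the replicate number as a block limma called 2 and 1 mitochondrial genes and 11 and 0 nuclear genes in the 2 comparisons. The shares of all genes called there were 7.15% and 1.08%. Leaving out 1 sample gave 0 to 15 and 0 to 19 mitochondrial and 0 to 55 and 0 to 20 nuclear genes. The share of all genes called ran from 0.632% to 19.8% and from 0.00835% to 11.5% in these fits. The mitochondrial share in PBA minus GC then ran from -13.3 to 15.1 points, being negative without GC1 (-0.273), GC2 (-2.28) or PBA3, and the 3-group p from 0.0214 to 0.268. In HU against GC, mt-Rnr1 changed sign to 0.38 without GC3 (also with PBA3 left out) and 0.89 without HU3 (-1.99 to 0.89 over single samples left out), and mt-Rnr2 to -0.71 with total reads and -1.18 without HU1 (-1.18 to 1.59). Of 920 alternative values of 23 single mitochondrial genes these 5 reversed. The causes were not tested. With 12 to 152 reads for mt-Th and 1 to 283 for mt-Tl1 per library, depth limits the transfer RNAs more than the messenger RNAs.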

Other observations

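The patterns across single libraries given here were not tested, although each gene was part of the group comparisons. Lars2, the nuclear gene of the mitochondrial leucyl-tRNA synthetase, had 34.6, 37.7 and 261 FPKM in GC1 to GC3, 93.9, 10.2 and 3.60 in HU1 to HU3, and 23.6, 25.7 and 3.02 in PBA1 to PBA3. Its highest libraries, GC3 and HU1, were also the highest for mt-Rnr1 and mt-Rnr2, and its lowest, HU3 and PBA3, were the lowest for mt-Rnr1. Lars2 was singled out after its values were seen.

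Several low mitochondrial genes had few reads in HU1 and many in HU2 and HU3, although HU1 had 5608951 mitochondrial reads and HU3 had 5336461. mt-Atp8 had 2 reads in HU1 against 220 and 163, mt-Tl1 had 1 against 158 and 105, and mt-Tl2 had 35 against 1161 and 1509. mt-Tg had 15 against 112 and 210, and mt-Tn had 41 against 228 and 239. mt-Tp did not follow, with 7614 reads in HU1 against 4980 and 5408, nor did mt-Tc, with 874 against 313 and 574. These genes were also chosen after their values were seen.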
